A study of Arabidopsis thaliana with 4 samples.

Results

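The cytochrome P450 genes described here are the 230 genes, of 32399 in the deposited table, whose short annotation names a cytochrome P450. The annotation matched 234 genes, and 4 of them, all among 6 genes set aside by the rule, are not counted. Of the 230 genes, 219 carry a CYP name, 218 from the table and 1 from the TAIR10.1 annotation, and these fall into 41 families and 59 subfamilies. A further 16 P450-named genes are annotated under other words, such as C4H (CYP73A5) and DWF4 (CYP90B1), and are no members.

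P450 enzymes are haem proteins that place 1 oxygen atom from molecular oxygen into a substrate, with electrons that most plant P450s receive in the endoplasmic reticulum from NADPH-cytochrome P450 reductase. A cysteine near the end of the chain binds the haem iron. In plants the superfamily makes and breaks down hormones, builds sterols, carotenoids, cutin and lignin precursors, and makes defence compounds such as glucosinolates and terpenoids, and many of its genes lie in tandem arrays.

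RNA was read from shoot apices of Arabidopsis thaliana Col-0, dissected from 10-day-old plants that had spent their last 24 h in liquid ½ MS medium. The 4 groups were the mutant nse4a-2 with 20 µM zebularine (nse4a-2_zeb), nse4a-2 without it (nse4a-2_ctrl), wild type with 20 µM zebularine (WT_zeb) and wild type without it (WT_ctrl), with 2 biological replicates each and thus 8 libraries. nse4a-2 is an allele of NSE4A, which encodes the kleisin of SMC5/6, a ring-shaped complex that holds DNA during repair, and its lesion is not given in the labels. Zebularine is a nucleoside that cells build into DNA, where it captures DNA methyltransferases. The study asked how mRNA levels of wild type and mutant differ under this drug.

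Libraries held 15360494 to 19811948 counted reads, so that 3 reads, the upper limit that a count of 0 allows, correspond to 0.151 to 0.195 CPM (the read count scaled to the total of its library). The correlation across genes between both replicates of a group was 0.980 to 0.986. The headers call them biological replicates and do not say whether they were separate plant pools, so p-values measure the spread between these libraries. NSE4A itself had 17.99 and 21.2 CPM in nse4a-2_zeb, 8.59 and 7.77 in nse4a-2_ctrl, 10.9 and 12.3 in WT_zeb, with 10.7 and 9.34 in WT_ctrl, and these counts do not check the genotype. Of the marker genes of the apex, STM, KNAT1 and CUC2 were read in every library, whereas CLV3 had at most 7 reads. The 4 shoot meristem genes summed to 54.7 to 58.2 CPM in nse4a-2_zeb, 53.3 to 59.2 in nse4a-2_ctrl, 49.4 to 56.2 in WT_zeb and 41.2 to 48.0 in WT_ctrl.

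The haem-binding signature, a stretch of 10 residues around the ligand cysteine, was found in 205 of the 230 translated coding sequences of TAIR10.1, and in 114 of the 126 members that could be tested. The search used a fixed pattern, so members without a match, such as CYP94C1 and CYP72A14, are not shown to lack the cysteine. The median coding length was 506 codons before the stop, from 113 to 595. The coding stretches of 30 bases are shown for the 7 members whose response to zebularine in nse4a-2 is described first below, since the results turn on them, 5′ to 3′ on the coding strand, with the codon of the cysteine in capitals.
CYP76C2: ttcggagccggacgtagaataTGCccggga
CYP714A1: tttggcttagggacaaggttgTGTttagga
CYP72A8: tttggatggggaccaagattcTGTcctggc
CYP81D8: tttgggttaggaagaagggcgTGTcctggt
CYP89A9: tttggagcgggacgacggatgTGTcccggc
CYP82G1: ttcggttcgggaaggaggtcgTGTccggga
CYP96A5: tttaattctggtccaagaaacTGCttgggg
The cysteine codon is TGC in CYP76C2 and CYP96A5 and TGT in the other 5, and it lies at codon 451 of 512 in CYP76C2 and at codon 480 of 532 in CYP714A1. The sequences are from RefSeq's copy of TAIR10.1, and the files were aligned to TAIR10 per the submitters' processing notes.

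P450 genes took 0.228 and 0.237% of the counts in nse4a-2_zeb, 0.190 and 0.220% in nse4a-2_ctrl, 0.199 and 0.216% in WT_zeb, with 0.182 and 0.184% in WT_ctrl. Of the 230 members, 200 had at least 1 read, 133 had reads in all 8 libraries and 30 had none. The filter on low counts kept 126 members for testing. The 104 others were the 30 without reads and 74 with at most 47 reads over all libraries.

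In levels per gene length, given as the authors' FPKM (fragments scaled to gene length and library size), 94 members averaged at least 1 FPKM over the 8 libraries and 34 at least 10 FPKM. The 10 members with the most reads held 43.3% of all P450 counts. CYP83B1, which commits indole aldoximes to glucosinolates, was the highest, with 115 and 132 FPKM in nse4a-2_zeb, 75.4 and 86.0 in nse4a-2_ctrl, 65.5 and 101 in WT_zeb, with WT_ctrl at 42.2 and 59.3. CYP83A1, its counterpart for aliphatic glucosinolates, followed at a mean of 76.6 FPKM, and the ranges of the pair overlapped. CYP51G1, the sterol demethylase, averaged 64.2 FPKM and stayed between 55.0 and 72.7 FPKM. Next came CYP79F1, the first enzyme of aliphatic glucosinolate synthesis, at 51.7 FPKM, CYP86A2, a fatty acid hydroxylase of cutin synthesis, at 45.4 FPKM, and CYP71B7 at 45.1 FPKM. The 4 remaining members of the 10 highest were CYP77B1 at 39.995 FPKM, CYP97B3 of the carotenoid hydroxylase family at 38.1 FPKM, CYP98A3 of lignin synthesis at 37.4 FPKM, and CYP78A5 (KLU), which promotes organ growth, at 36.5 FPKM. Ranges of neighbours in this order overlapped. CYP71B7 was the 1 of these 10 that passed a test.

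**Figure D1:**
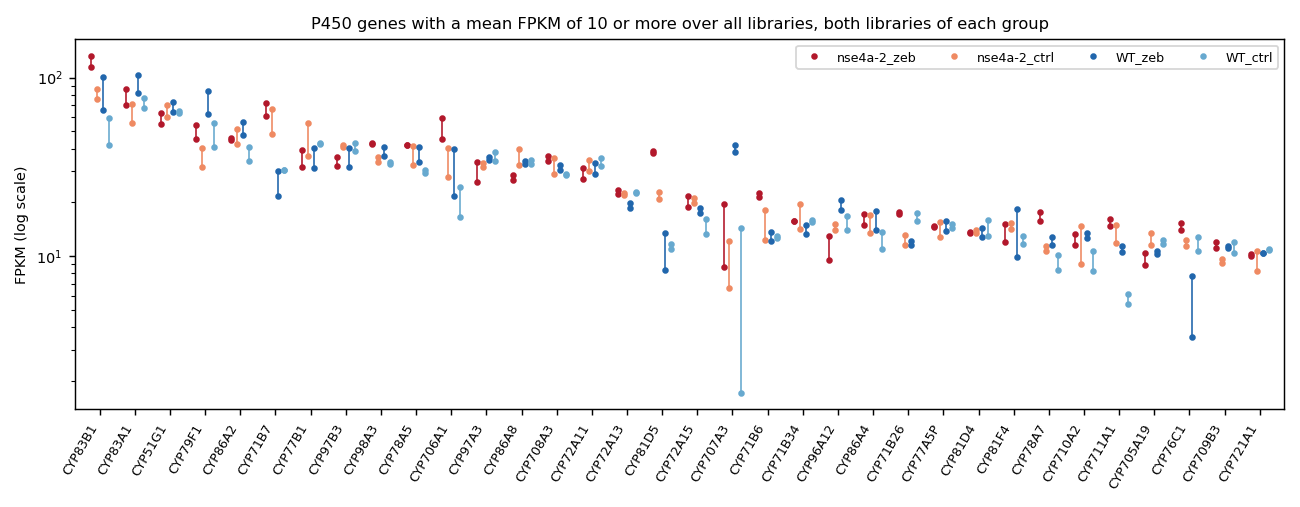
FPKM (log scale) of the 34 P450 genes with a mean of at least 10 FPKM, ordered by that mean, with 1 point per library and a line joining the 2 libraries of a group. CYP81D5 and CYP71B7 have both nse4a-2_zeb points above both WT_zeb points, and CYP707A3 spreads from 1.72 to 41.8 FPKM.

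The P450 genes that rose with zebularine in apices of nse4a-2 included CYP76C2 (AT2G45570), CYP714A1 (AT5G24910), which inactivates gibberellins, CYP82G1 (AT3G25180), which forms volatile homoterpenes, CYP81D8 (AT4G37370) and CYP89A9 (AT3G03470), which oxidises chlorophyll catabolites. Of the 126 members tested, 17 rose and 1 fell (edgeR's quasi-likelihood test, Benjamini-Hochberg adjusted p below 0.05 over all 19682 genes). Among all genes tested, 8.94% rose and 5.74% fell, against 13.5% and 0.794% of the members. The members' median log2 fold change was 0.14, against 0.00 for all genes.

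CYP76C2, a relative of the linalool-oxidising CYP76C1, had 18.7 and 24.9 CPM in nse4a-2_zeb, against 0.716 and 0.987 CPM in nse4a-2_ctrl. In wild type it had 0.909 and 1.73 CPM in WT_zeb, against 0.773 and 0.648 CPM in WT_ctrl. Both nse4a-2_zeb libraries stood above the 6 others, and both WT_zeb libraries lay above both WT_ctrl libraries, where the change of 0.90 did not pass (adjusted p 0.334). The rise in nse4a-2 was 4.69 ± 0.34 on the log2 scale (± SE, adjusted p 0.000135). CYP714A1 had 2.72 and 2.43 CPM in nse4a-2_zeb, against 0.130 and 0.247 CPM in nse4a-2_ctrl, a rise of 3.74 ± 0.54 (adjusted p 0.00245). It had 1 to 3 reads in each WT library, at the level that a count of 0 allows.

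CYP82G1 had 48 and 118 reads in nse4a-2_zeb, against 3 and 10 in nse4a-2_ctrl, and it rose by 3.58 ± 0.64 (adjusted p 0.00811). It had 3 and 6 reads in WT_zeb and none in WT_ctrl. CYP96A5 (AT2G21910) was read in nse4a-2_zeb alone, with 15 and 26 reads, against none in nse4a-2_ctrl and none in the WT libraries. That is at least 12.9-fold higher than in nse4a-2_ctrl, against a floor of 3 counts over its 2 libraries (adjusted p 0.0154). CYP96A5, CYP82G1 and CYP714A1 passed the filter on low counts only through nse4a-2_zeb, the group where they are high. Their adjusted p-values, and their places among the 17 rises, are therefore no separate support. For CYP82G1 and CYP96A5 replicate 2 of nse4a-2_zeb was above replicate 1 by more than 1.5 times, as in 5 other rising members.

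CYP81D8, a gene known for its induction by many foreign chemicals, had 14.1 and 28.8 CPM in nse4a-2_zeb, against 5.99 and 5.24 CPM in nse4a-2_ctrl, a rise of 1.96 ± 0.32 (adjusted p 0.00426). In wild type it had 2.88 and 2.51 CPM in WT_zeb, with 1.60 and 2.66 CPM in WT_ctrl, which overlapped. CYP72A8 (AT3G14620) had 16.0 and 28.4 CPM in nse4a-2_zeb, against 4.30 and 7.28 CPM in nse4a-2_ctrl, and rose by 1.96 ± 0.31 (adjusted p 0.00358). CYP89A9 had 7.91 and 10.6 CPM in nse4a-2_zeb, against 2.80 and 2.84 CPM in nse4a-2_ctrl, and rose by 1.74 ± 0.27 (adjusted p 0.00343). For each of these 3 genes the lowest nse4a-2_zeb library lay above every other library.

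CYP710A1, the sterol desaturase that makes stigmasterol, rose by 1.997 ± 0.53 (adjusted p 0.0345), with 1.61 and 3.87 CPM in nse4a-2_zeb, against 0.456 and 0.925 CPM in nse4a-2_ctrl. The 9 other rises, in order of size, were CYP96A11 (1.82), CYP71B23 (1.53), CYP71A21 (1.24), CYP71B5 (1.15), CYP89A2 (1.14), CYP94C1 (1.11), CYP81D5 (0.80), CYP78A7 (0.60) and CYP71B26 (0.49 on the log2 scale). In 14 of the 17 rising members both nse4a-2_zeb libraries lay above the 6 other libraries, and CYP89A2, CYP94C1 and CYP71B26 were the exceptions. That is 82.4% of the rising members, against 90.2% of the 1760 genes that rose in all. Over all members tested, 44 had both nse4a-2_zeb libraries above both nse4a-2_ctrl libraries and 25 had both below, 34.9% and 19.8% of the members, against 26.4% and 30.4% of all genes.

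The member that fell was CYP707A2, a hydroxylase that breaks down abscisic acid, with 1.48 and 2.20 CPM in nse4a-2_zeb, against 4.04 and 6.60 CPM in nse4a-2_ctrl. Its change was −1.50 ± 0.37 (adjusted p 0.0247), and the groups did not overlap.

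Some markers of other cells differed in the same comparison. The 4 leaf photosynthesis genes summed to 7245 to 8198 CPM in nse4a-2_zeb, against 5353 to 6486 CPM in nse4a-2_ctrl, with 2 of the 4, LHCB2.1 and RCA, past the test. The sums of the 4 root genes overlapped, at 6.25 to 8.21 CPM in nse4a-2_zeb, against 4.57 to 6.71 CPM in nse4a-2_ctrl. Of these, COBL9 passed, with 38 and 61 reads in nse4a-2_zeb, against 4 and 2 in nse4a-2_ctrl. PRP3 had 2 and 3 reads in nse4a-2_zeb, against 22 and 9 in nse4a-2_ctrl (adjusted p 0.148), WER did not pass (adjusted p 0.979) and RHD6 was at 0 in nse4a-2_zeb. The 3 stomatal genes summed to 43.1 to 43.3 CPM in nse4a-2_zeb, against 49.2 to 58.9 CPM in nse4a-2_ctrl, with none past the test. Their part in the result was not tested, and in such bulk samples fewer cells of a type and less RNA per cell cannot be told apart. In nse4a-2_ctrl, 89 of the 126 members tested (70.6%) were higher in replicate 2 than in replicate 1, against 44.4% of all genes. The shares were 59.5% against 58.7% in nse4a-2_zeb, 52.4% against 35.6% in WT_zeb and 51.6% against 53.9% in WT_ctrl. What this replicate difference did to the calls was not tested. Leaving out each of the 8 libraries in turn gave 5 to 19 rises, with 5 without nse4a-2_ctrl replicate 1 and 6 without nse4a-2_zeb replicate 2. CYP76C2, CYP714A1, CYP72A8, CYP81D8 and CYP89A9 passed each time.

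**Figure D2:**
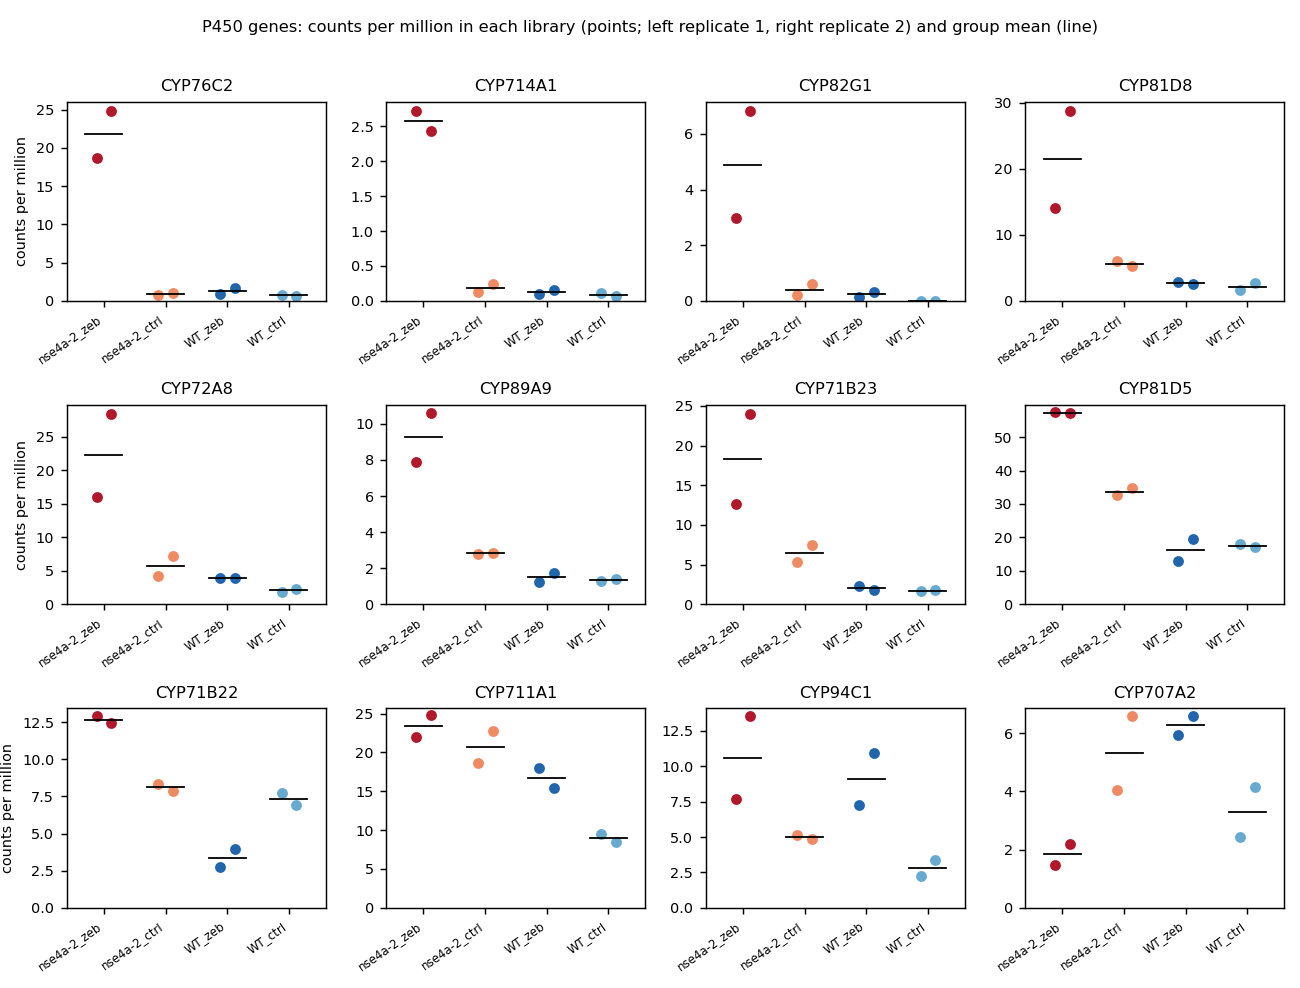
CPM of 12 P450 genes in each library, with points for replicates 1 (left) and 2 (right) and a line at the group mean. CYP76C2, CYP714A1 and CYP82G1 are near 0 outside nse4a-2_zeb, CYP711A1 is lowest in WT_ctrl, at 9.56 and 8.50 CPM, and CYP707A2 is lowest in nse4a-2_zeb, at 1.48 and 2.20 CPM.

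In wild type the same dose gave 3 rises and 1 fall among the 126 members, against 1.66% rises and 0.635% falls over all genes. CYP94C1, which oxidises jasmonoyl-isoleucine to an inactive form, had 7.27 and 10.9 CPM in WT_zeb, against 2.26 and 3.37 CPM in WT_ctrl, and rose by 1.73 ± 0.34 (adjusted p 0.0341). CYP79F2, which starts the synthesis of long-chain aliphatic glucosinolates, had 11.4 and 13.2 CPM in WT_zeb, against 5.41 and 7.59 CPM in WT_ctrl, and rose by 0.95 ± 0.20 (adjusted p 0.0429). CYP711A1 (MAX1), an enzyme of strigolactone synthesis, had 17.97 and 15.4 CPM in WT_zeb, against 9.56 and 8.50 CPM in WT_ctrl, and rose by 0.90 ± 0.16 (adjusted p 0.0243). These groups did not overlap for any of the 3 genes.

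CYP71B22 (AT3G26200) fell in wild type, with 2.78 and 3.98 CPM in WT_zeb, against 7.73 and 6.94 CPM in WT_ctrl, a change of −1.09 ± 0.22 (adjusted p 0.0395). The median of the members tested was 0.19, against −0.01 for all genes. Of the members, 45 had both WT_zeb libraries above both WT_ctrl libraries (35.7%, against 21.6% of all genes) and 22 had both below (17.5%, against 26.2%). CYP94C1 was the 1 member that rose in both genotypes, 5.88% of the 17 that rose in nse4a-2 and 33.3% of the 3 that rose in wild type. Leaf photosynthesis genes summed to 6033 to 7890 CPM in WT_zeb, against 5384 to 6605 CPM in WT_ctrl, and 1 of the 4, LHCB2.1, rose by 1.40 (adjusted p 0.00477). Root genes summed to 3.38 to 3.56 CPM in WT_zeb, against 5.77 to 6.02 CPM in WT_ctrl, and stomatal genes to 41.0 to 42.2 CPM in WT_zeb, against 47.7 to 54.5 CPM in WT_ctrl, with none past the test. Shoot meristem genes summed to 49.4 to 56.2 CPM in WT_zeb, against 41.2 to 48.0 CPM in WT_ctrl, also with none past the test. Both WT_zeb libraries lay above both WT_ctrl libraries for KNAT1 (0.38) and CUC2 (0.55), whereas STM and CLV3 overlapped. Their part in the result was not tested. For the alternative settings that follow, the shares of all genes called are not given, and the shares above are those of the main fit. The count of rises was 7 with DESeq2 and 9 without the filter, and 0 without WT_ctrl replicate 1 or without WT_zeb replicate 2. It was 1 without WT_zeb replicate 1 or either nse4a-2_ctrl replicate, and no call of this comparison passed under every setting.

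**Figure D3:**
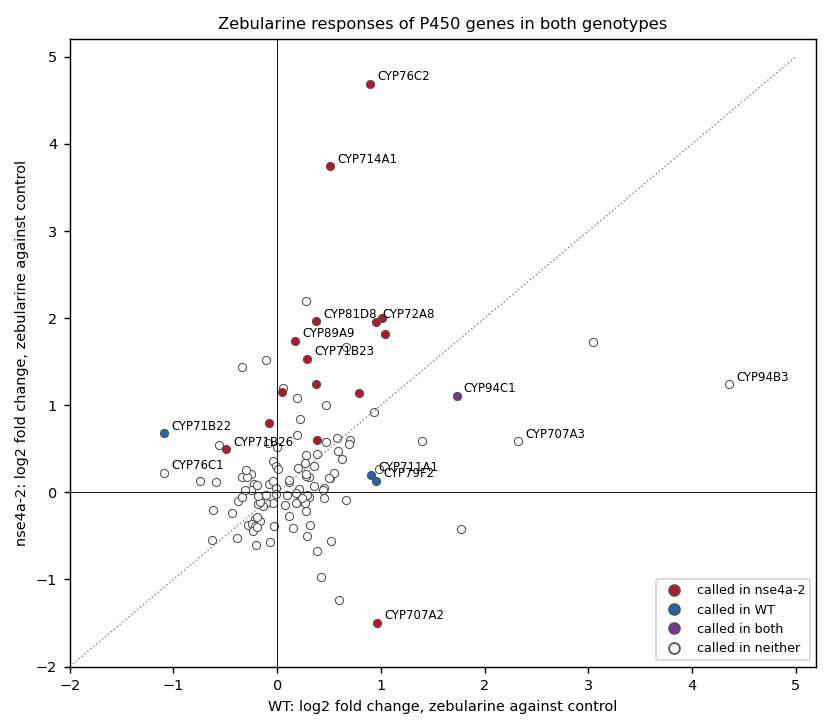
Log2 fold changes with zebularine in nse4a-2 (vertical axis) against those in wild type (horizontal axis) for the 123 tested P450 genes with reads in every group. Colours show in which genotype the adjusted p was below 0.05, and the dotted line marks equal responses. CYP76C2 lies at 4.69 in nse4a-2 and 0.90 in wild type, and CYP71B22 and CYP71B26 have opposite signs in the genotypes.

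The test of the difference between the zebularine responses, nse4a-2 minus wild type, passed for 3 of the 126 members, each with the higher response in nse4a-2, and over all genes 0.549% passed in that direction. CYP76C2 responded more by 3.79 ± 0.57 on the log2 scale (adjusted p 0.0262). CYP71B22 had 12.9 and 12.4 CPM in nse4a-2_zeb, against 8.33 and 7.90 CPM in nse4a-2_ctrl, and the difference from its fall in wild type was 1.77 ± 0.31 (adjusted p 0.0365). CYP71B26 had 25.04 and 25.03 CPM in nse4a-2_zeb, against 19.7 and 16.7 CPM in nse4a-2_ctrl. In wild type it had 17.4 and 16.96 CPM in WT_zeb, against 25.8 and 23.3 CPM in WT_ctrl, and the difference of the responses was 0.99 ± 0.18 (adjusted p 0.0471). No member passed in the other direction with edgeR, against 0.224% of all genes, and 1 did with DESeq2. In edgeR's test 19 members had an unadjusted p below 0.05, in either direction, 15.1% of the members against 14.3% of all genes. COBL9 of the root genes passed this test too (adjusted p 0.0362). PRP3 (0.29, adjusted p 0.968) and WER (−0.04, adjusted p 0.979) did not, and RHD6 had too few reads to be tested. The part of root cells in the result was not tested. None of the 3 calls passed with every library left out in turn, when the count ran from 0 to 4. It was 0 without either WT_ctrl replicate, either nse4a-2_ctrl replicate or nse4a-2_zeb replicate 2, and 1 without WT_zeb replicate 1 or nse4a-2_zeb replicate 1. For CYP707A2 the responses went apart by −2.46 ± 0.50 and did not pass (adjusted p 0.0591), and for CYP89A9 the difference was 1.57 ± 0.42 (adjusted p 0.124).

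Between genotypes in zebularine, 27 members were higher in nse4a-2 than in wild type and 4 were lower, 21.4% and 3.17% of the 126, against 12.9% and 9.09% of all genes. This comparison and that of zebularine in nse4a-2 share the nse4a-2_zeb libraries. CYP71B23 (AT3G26210) had 12.7 and 24.0 CPM in nse4a-2_zeb, against 2.32 and 1.78 CPM in WT_zeb, a difference of 3.16 ± 0.33 (adjusted p 0.000256). CYP81D5 (AT4G37320) had 57.4 and 57.3 CPM in nse4a-2_zeb, against 13.1 and 19.7 CPM in WT_zeb, a difference of 1.81 ± 0.19 (adjusted p 0.000287). CYP71B7 (AT1G13110) had 110 and 96.5 CPM in nse4a-2_zeb, against 35.3 and 45.2 CPM in WT_zeb, a difference of 1.36 ± 0.19 (adjusted p 0.00116).

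The genes with the greatest differences apart from CYP96A5 were CYP82G1 (4.36), CYP714A1 (4.25), CYP76C2 (4.04), CYP71B23, CYP81D8 (2.99), CYP89A9 (2.63) and CYP72A8 (2.50 on the log2 scale). CYP96A5, with 15 and 26 reads in nse4a-2_zeb against none in WT_zeb, was at least 15.9-fold higher against the same floor. Since CYP96A5, CYP82G1 and CYP714A1 passed the filter only through nse4a-2_zeb, their calls among the 27 are no separate support. CYP76C1, which oxidises linalool in flowers, had 25.5 and 25.7 CPM in nse4a-2_zeb, against 6.81 and 13.1 CPM in WT_zeb, a difference of 1.35 ± 0.27 (adjusted p 0.0069). CYP71B6, which acts on indole compounds, was higher by 0.77 ± 0.17 (adjusted p 0.0115), with 32.0 and 34.7 CPM in nse4a-2_zeb, against 19.3 and 20.0 CPM in WT_zeb.

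The 4 genes lower in nse4a-2 were CYP71B2 (−1.98 ± 0.51), CYP707A2 (−1.76 ± 0.36), CYP78A8 (−1.18 ± 0.32) and CYP96A12 (−0.80 ± 0.16). CYP707A2 had 1.48 and 2.20 CPM in nse4a-2_zeb, against 5.96 and 6.60 CPM in WT_zeb (adjusted p 0.00789). CYP71B2 had 1.61 and 0.752 CPM in nse4a-2_zeb, against 6.76 and 2.72 CPM in WT_zeb (adjusted p 0.0212), and in control medium it was at 0.651 and 1.11 CPM in nse4a-2_ctrl and 3.04 and 4.28 CPM in WT_ctrl. These control groups did not overlap, and their difference, −2.04 ± 0.54, did not pass (adjusted p 0.0792). In the drug, 52 members had both mutant libraries above both wild-type ones (41.3%, against 30.3% of all genes) and 29 had both below (23.0%, against 32.6%). Root genes summed to 6.25 to 8.21 CPM in nse4a-2_zeb, against 3.38 to 3.56 CPM in WT_zeb. Of the 4, COBL9 was higher (4.45, adjusted p 0.00125), PRP3 (−0.91, adjusted p 0.659) and WER (0.44, adjusted p 0.271) did not pass, and RHD6 was at 0 in both groups. Stomatal genes summed to 43.1 to 43.3 CPM in nse4a-2_zeb, against 41.0 to 42.2 CPM in WT_zeb, with FAMA higher by 0.60 (adjusted p 0.0112), and leaf photosynthesis and shoot meristem sums overlapped. Of the meristem genes, KNAT1 (0.36, adjusted p 0.0601), STM (−0.33, adjusted p 0.162) and CUC2 (−0.06, adjusted p 0.818) did not pass. The part of these cells in the result was not tested. Leaving out each library gave 14 to 29 higher members, with 14 without nse4a-2_zeb replicate 2 and 17 without WT_zeb replicate 1, and 12 of the 31 calls passed each time.

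In control medium, 5 members were higher in nse4a-2 than in wild type and none was lower, against 2.28% and 0.854% of all genes. The genes were CYP72A14, CYP71B23, CYP711A1, CYP81D5 and CYP71B7, and all 5 were also higher in zebularine, where they made up 18.5% of the 27. CYP72A14 (AT3G14680) had 3.32 and 3.08 CPM in nse4a-2_ctrl, against 0.497 and 0.908 CPM in WT_ctrl, a difference of 2.19 ± 0.40 (adjusted p 0.0214). CYP711A1 had 18.6 and 22.8 CPM in nse4a-2_ctrl, against 9.56 and 8.50 CPM in WT_ctrl, a difference of 1.19 ± 0.16 (adjusted p 0.00583). CYP71B23 differed by 1.91 ± 0.35 (adjusted p 0.0219), CYP81D5 by 0.93 ± 0.19 (adjusted p 0.0332) and CYP71B7 by 0.90 ± 0.19 (adjusted p 0.035).

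In zebularine CYP72A14 had 3.03 and 3.35 CPM in nse4a-2_zeb, against 0.757 and 1.10 CPM in WT_zeb, close to its values in control medium. CYP711A1 passed with each library left out, and the other 4 did not. The count of higher members was 10 with DESeq2 and 13 without the filter, and it was 1 without WT_ctrl replicate 1 or nse4a-2_ctrl replicate 2 and 2 without WT_ctrl replicate 2. DESeq2 called 1 member lower. The shares of all genes called with DESeq2 or without the filter are not given, so these counts cannot be set against the shares of the main fit. In edgeR's test 32 members had an unadjusted p below 0.05, 25.4% of the members against 18.4% of all genes. The members' median was 0.16, against −0.01 for all genes, and 48 members (38.1%) had both nse4a-2_ctrl libraries above both WT_ctrl libraries, against 25% of all genes, and 23 (18.3%) had both below, against 23.8%. Shoot meristem genes summed to 53.3 to 59.2 CPM in nse4a-2_ctrl, against 41.2 to 48.0 CPM in WT_ctrl, with none past the test. Both nse4a-2_ctrl libraries lay above both WT_ctrl libraries for KNAT1 (0.47) and CUC2 (0.58), whereas STM and CLV3 overlapped. LHCB2.1 was lower in nse4a-2 by 1.01 on the log2 scale (adjusted p 0.0131), and the sums of leaf photosynthesis, root and stomatal genes overlapped. The part of these cells in the result was not tested.

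By role, the list of stress, iron and detoxification genes held 4 members, of which CYP76C2, CYP81D8 and CYP89A9 were tested and all 3 rose with zebularine in nse4a-2, where 8.94% of all genes rose. The lists were chosen with earlier results of these data known, so this count is no independent support. CYP81D11, a tested gene of the list that the annotation rule does not take as a member, had 11 and 9 reads in nse4a-2_zeb, against 12 and 0 in nse4a-2_ctrl, and did not pass (adjusted p 0.684). None of the 3 members was called in wild type, where none had an unadjusted p below 0.05 and DESeq2 called none. The remaining member CYP82C4, known for iron deficiency, had no reads. Of the terpenoid list, 3 of 9 members were tested, and CYP82G1 rose in nse4a-2 with the drug. CYP705A5 of the thalianol cluster, known in roots, had no reads in nse4a-2_zeb, 2 and 11 in nse4a-2_ctrl, 0 and 7 in WT_zeb, with 0 and 10 in WT_ctrl, and did not pass (adjusted p 0.217 for zebularine in nse4a-2).

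Among hormone genes, the gibberellin list held CYP714A1, CYP714A2 and CYP88A3. CYP88A3, a kaurenoic acid oxidase of gibberellin synthesis, was at 17.6 and 17.9 CPM in nse4a-2_zeb, 19.1 and 17.95 in nse4a-2_ctrl, 13.7 and 13.7 in WT_zeb, with 13.0 and 12.9 in WT_ctrl. Its difference between genotypes did not pass in zebularine (0.38 ± 0.13, adjusted p 0.0599) or in control medium (0.51 ± 0.13, adjusted p 0.0697). CYP714A2, the tandem neighbour of CYP714A1, had 10 and 8 reads in nse4a-2_zeb, 6 and 7 in nse4a-2_ctrl, none in WT_zeb, with 8 and 5 in WT_ctrl, and did not pass the filter.

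The 4 abscisic acid hydroxylases CYP707A1 to CYP707A4 were all tested, and with edgeR CYP707A2 alone passed. In wild type with zebularine 3 of the 4 had an unadjusted p below 0.05, where 15.9% of all genes did. The list median there was 1.18 on the log2 scale, against −0.01 for all genes. DESeq2 called 1 of the 4 higher there, 1 higher in nse4a-2 in control medium and 1 with the lower response in nse4a-2. Of these, CYP707A3 had the widest range, with 13.9 and 32.4 CPM in nse4a-2_zeb, 11.3 and 20.0 in nse4a-2_ctrl, 71.7 and 60.6 in WT_zeb, with 2.93 and 24.4 in WT_ctrl. Its WT_zeb libraries stood above the 6 others. The response of wild type, 2.32 ± 0.69, missed the threshold (adjusted p 0.12).

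Of the jasmonate list, CYP94B1, CYP94B3 and CYP94C1, which inactivate jasmonoyl-isoleucine, were tested. All 3 had an unadjusted p below 0.05 for zebularine in wild type (15.9% of all genes), with a median of 1.77. Between genotypes in control medium 2 did (18.4% of all genes), with a median of 2.04. For zebularine in nse4a-2 1 did (29.7% of all genes), for the difference 1 (14.3%), and between genotypes in zebularine none (36.0%). CYP94B3 had 1.11 and 8.85 CPM in nse4a-2_zeb, 1.17 and 3.08 in nse4a-2_ctrl, 4.34 and 11.6 in WT_zeb, with 0.0552 and 0.778 in WT_ctrl. Replicate 2 was above replicate 1 in each group, and no change passed (adjusted p 0.0806 for zebularine in wild type). Both members of the brassinosteroid list that the rule found, CYP90D1 and CYP72C1, passed in no comparison, with no unadjusted p below 0.05 and no DESeq2 call. Of the list genes outside the rule, CYP90A1 alone was called with edgeR. It was lower in nse4a-2 than in wild type in zebularine (−0.42 ± 0.13, adjusted p 0.0404), where 9.09% of all genes were lower.

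In the organ-growth subfamily CYP78A, CYP78A7 rose in nse4a-2 with zebularine by 0.60 ± 0.13 (adjusted p 0.0181), with 34.4 and 31.6 CPM in nse4a-2_zeb, against 23.3 and 21.3 CPM in nse4a-2_ctrl. CYP78A8 was at 1.73 and 2.08 CPM in nse4a-2_zeb, against 4.09 and 4.61 CPM in WT_zeb. CYP78A5 was at 67.6 and 69.3 CPM in nse4a-2_zeb, 55.6 and 68.5 in nse4a-2_ctrl, 57.8 and 64.8 in WT_zeb, with 49.3 and 51.7 in WT_ctrl, and no difference passed.

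The glucosinolate list had 8 of 9 members tested, and with edgeR CYP79F2 in wild type was the 1 call. DESeq2 called 1 rise with zebularine in nse4a-2 and 2 in wild type, 2 higher and 1 lower members in nse4a-2 in zebularine, and 1 higher in control medium. An unadjusted p below 0.05 was found for 3 members in each of the first 3 comparisons and for 5 in control medium, and for 1 in the difference of the responses. In the same order, 29.7%, 15.9%, 36.0%, 18.4% and 14.3% of all genes had such a p. CYP83B1 had 177 and 208 CPM in nse4a-2_zeb, against 122 and 135 CPM in nse4a-2_ctrl, and 107 and 152 CPM in WT_zeb, against 67.4 and 95.8 CPM in WT_ctrl. These groups did not overlap within a genotype, yet neither change passed (0.61 ± 0.21, adjusted p 0.0906 in nse4a-2, and 0.70 ± 0.22, adjusted p 0.135 in wild type). CYP81F2, which modifies indole glucosinolates, had 8.16 and 14.6 CPM in nse4a-2_zeb, 5.92 and 6.36 in nse4a-2_ctrl, 3.38 and 6.18 in WT_zeb, with 1.55 and 3.63 in WT_ctrl, and no difference passed.

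Of the cutin, suberin, wax and pollen wall list, 6 of 11 members were tested and none passed in any comparison. At an unadjusted p below 0.05 there was 1 for zebularine in nse4a-2, 1 in wild type, 2 between genotypes in zebularine, none in control medium and 2 for the difference of the responses. In the same order, 29.7%, 15.9%, 36.0%, 18.4% and 14.3% of all genes had such a p. For the difference the list median was −0.38 against −0.01 for all genes, and DESeq2 called none in any comparison. CYP86A2 was at 83.8 and 88.0 CPM in nse4a-2_zeb, 83.7 and 99.6 in nse4a-2_ctrl, 95.6 and 103 in WT_zeb, with 67.1 and 80.6 in WT_ctrl. CYP98A3 of the phenylpropanoid list stayed between 57.0 and 73.6 CPM in all libraries, and no member of that list passed with either tool. An unadjusted p below 0.05 was found for 1, for zebularine in nse4a-2, where 29.7% of all genes had such a p. CYP84A1, a gene of that list outside the annotation rule, was lower in nse4a-2 than in wild type in zebularine (−0.72 ± 0.14, adjusted p 0.00676). Of all genes, 9.09% were lower there, and CYP73A5, also outside the rule, passed in no comparison. In the sterol and carotenoid list of 5 tested members, CYP710A1 was called, and CYP51G1 stayed between 91.6 and 117 CPM.

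By family, CYP71 had the most members tested. Of its 46 members, 20 were tested, and in zebularine 10 were higher and 1 lower in nse4a-2 than in wild type, with a median of 0.70 against −0.02 for all genes. The subfamily CYP71B made up 17 of these 20, with 9 higher and 1 lower. In CYP72, 3 of 9 were higher, in CYP81 3 of 10, and in CYP96 2 of 6 with 1 lower, where 12.9% of all genes were higher and 9.09% lower. With zebularine in nse4a-2, CYP71 had 4 rises, CYP81 and CYP96 had 2 each, and CYP72 and CYP78 had 1 each, where 8.94% of all genes rose. CYP705, a family with 24 members of which 11 were tested, had no call in any comparison, with 0 to 2 members at an unadjusted p below 0.05 in a comparison and no DESeq2 call. CYP86 (7 tested) and CYP77 (5 tested) had none either, with at most 1 unadjusted p below 0.05 in a comparison and no DESeq2 call. Over all genes, 14.3% to 36.0% had an unadjusted p below 0.05 in a comparison.

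**Figure D4:**
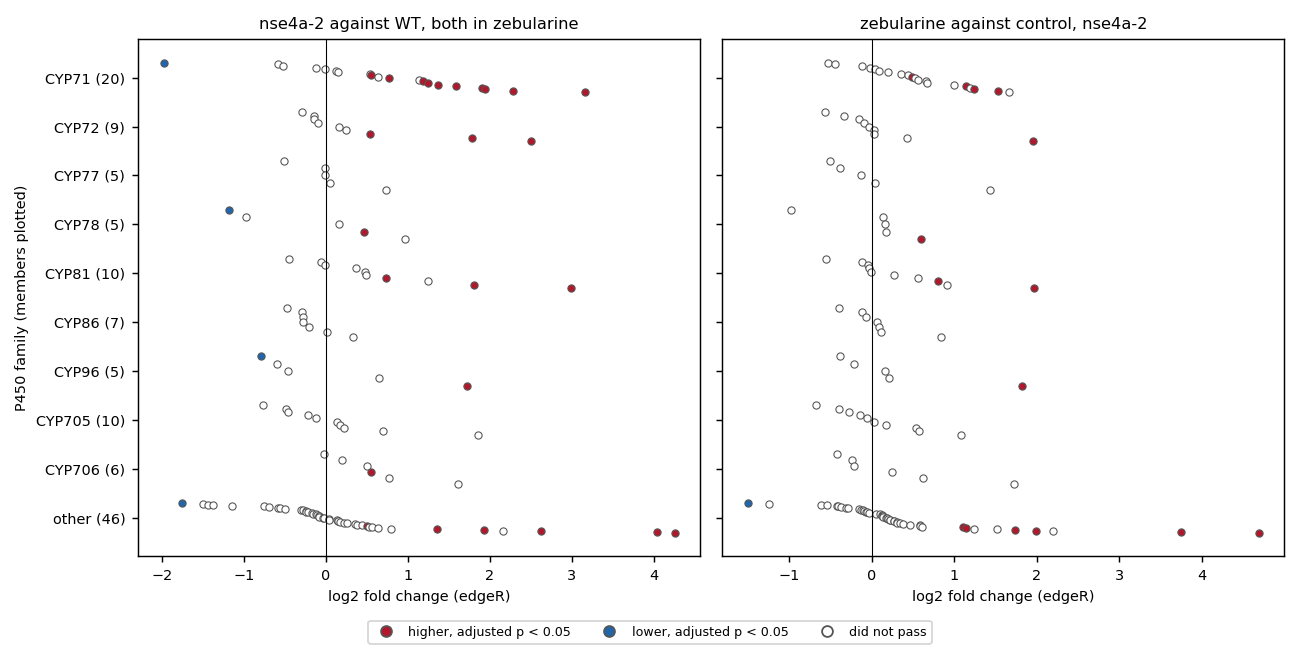
Log2 fold changes of the 123 tested P450 genes with reads in every group, by family. The left panel sets nse4a-2_zeb against WT_zeb, and the right panel sets nse4a-2_zeb against nse4a-2_ctrl. Filled points passed an adjusted p of 0.05. CYP71 shows 10 higher members and 1 lower on the left, and CYP705 shows none.

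P450 genes of plants often lie side by side, and 17 runs of at least 3 members, with at most 2 other protein-coding genes between neighbours, were found in the TAIR10.1 gene order. The run with the most called members was on chromosome 3, from CYP71B16 (AT3G26150) to CYP71B24 (AT3G26230), with 9 genes, 6 of them tested. CYP71B22, CYP71B23, CYP71B3 and CYP71B24 lie next to each other there, and all 4 were higher in nse4a-2 than in wild type in zebularine. Of all genes, 12.9% were higher there, and the run was picked for its number of calls, so these calls are no separate support. CYP71B3 had 36 and 57 reads in nse4a-2_zeb, against 12 and 10 in WT_zeb (2.28 ± 0.58, adjusted p 0.0203). CYP71B24 had 17 and 23 reads in nse4a-2_zeb, against 8 and 4 in WT_zeb (1.94 ± 0.58, adjusted p 0.0392). CYP71B20 in the same run was at 6.55 and 8.04 CPM in nse4a-2_zeb, against 7.72 and 8.17 CPM in WT_zeb, and did not pass.

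The aligned coding sequences of CYP71B3 and CYP71B24 were 87.3% identical, and those of CYP71B22 and CYP71B23 69.8%. Neither pair shared an exact window of 100 bases, the read length, in its longest transcripts. Such shared windows were found in 26 of the 230 members. They were most frequent in CYP706A2, with 52.1% of its windows, and CYP706A1, with 39.9%, whose counts are therefore uncertain, and neither passed a test. Of the called members, CYP79F2 alone had any, 0.052% of its windows, shared with CYP79F1.

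**Figure D5:**
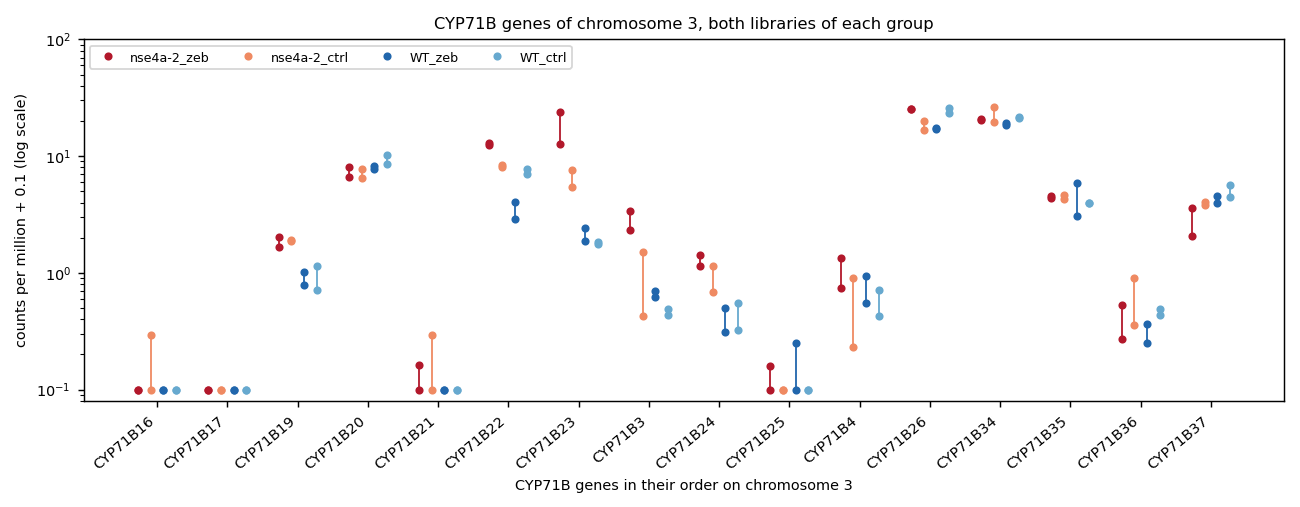
CPM + 0.1 (log scale) of 16 CYP71B genes in their order on chromosome 3, with 1 point per library and a line joining the 2 libraries of a group. From CYP71B22 to CYP71B24 both nse4a-2_zeb points lie above both WT_zeb points, whereas CYP71B20 does not differ in that way.

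Other runs held members with unlike values. In the CYP76C run on chromosome 2, CYP76C2 rose in nse4a-2 with zebularine, while its neighbour CYP76C1, 83.5% identical in coding sequence, changed by 0.22 ± 0.26 (adjusted p 0.619). In wild type CYP76C1 changed by −1.09 with zebularine, which did not pass with edgeR and was called a fall by DESeq2. Both genes were higher in nse4a-2 than in wild type in zebularine. CYP76C3, next to them, had 7 and 6 reads in nse4a-2_zeb, 0 and 3 in nse4a-2_ctrl and none in either WT group, and CYP76C4 was not tested. On chromosome 4, CYP96A11 had 5.50 and 4.57 CPM in nse4a-2_zeb, against 1.77 and 1.31 CPM in WT_zeb, a difference of 1.72 ± 0.35 (adjusted p 0.00788). Its neighbour CYP96A12 had 21.1 and 16.1 CPM in nse4a-2_zeb, against 35.9 and 29.3 CPM in WT_zeb (−0.80 ± 0.16, adjusted p 0.00826). These neighbours differed in opposite directions between genotypes in zebularine. A further low member, CYP709B1 (AT2G46960), had 5 and 13 reads in nse4a-2_zeb and none in the 6 other libraries, at least 5.66-fold higher than in nse4a-2_ctrl against the floor, and did not pass the filter.

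The promoters of members that rose with zebularine in nse4a-2 were searched for letters of known plant motifs in the 250 bases before the gene start annotated in TAIR10.1. The W-box of WRKY factors, searched as TTGACC or TTGACT on both strands, was present in 7 of the 17 rising members (41.2%), in 34 of the 126 members tested (27.0%) and in 28.4% of 27443 protein-coding genes. In a window that also takes the 50 bases after the start, it was present in 9 of 17 (52.9%) and 32.4% of all. TGACG, the core of TGA factor sites, was in 3 of the 17 and 18.6% of all genes, and CTT and AAG with 7 bases between them, as bound by the DNA damage regulator SOG1, in 2 of the 17 and 9.71% of all genes. The next base decides whether a TGAC core is a W-box or a TGACG match, and 1 rising member held both motifs. The G-box CACGTG was in 2 of the 17 and 6.49% of all, and the GCC-box GCCGCC in none of the 17 and 1.87% of all. These matches are letters, not shown binding sites. The windows of 4 rising members with a W-box are shown 5′ to 3′ on the strand of the gene, with W-box and TGACG matches in either orientation in capitals.
CYP76C2 (chr2:18781974-18782223, minus strand): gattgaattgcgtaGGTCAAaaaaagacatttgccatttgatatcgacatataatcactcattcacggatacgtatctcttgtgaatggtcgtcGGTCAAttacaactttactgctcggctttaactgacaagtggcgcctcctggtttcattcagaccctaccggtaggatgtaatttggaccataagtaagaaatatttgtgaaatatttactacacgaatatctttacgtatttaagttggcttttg
CYP81D8 (chr4:17571744-17571993, minus strand): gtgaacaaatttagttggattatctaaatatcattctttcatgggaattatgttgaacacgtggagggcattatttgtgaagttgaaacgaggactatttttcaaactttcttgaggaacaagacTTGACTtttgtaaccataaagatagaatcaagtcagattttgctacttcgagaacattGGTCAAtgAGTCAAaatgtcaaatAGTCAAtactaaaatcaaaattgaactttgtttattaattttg
CYP72A8 (chr3:4914539-4914788, plus strand): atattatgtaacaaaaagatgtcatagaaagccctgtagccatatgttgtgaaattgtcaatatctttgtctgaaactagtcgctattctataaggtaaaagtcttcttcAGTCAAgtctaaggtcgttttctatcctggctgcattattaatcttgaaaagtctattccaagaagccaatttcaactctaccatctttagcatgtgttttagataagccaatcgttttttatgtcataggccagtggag
CYP71B23 (chr3:9595284-9595533, minus strand): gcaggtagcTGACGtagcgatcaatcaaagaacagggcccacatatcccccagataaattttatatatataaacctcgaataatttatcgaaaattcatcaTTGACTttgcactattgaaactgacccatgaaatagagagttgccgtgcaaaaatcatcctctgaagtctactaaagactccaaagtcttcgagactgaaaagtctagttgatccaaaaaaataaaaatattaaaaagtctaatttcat
CYP81D8 holds 4 W-box matches and CYP76C2 holds 2, whereas the windows of CYP89A9 and CYP714A1, which also rose, hold neither W-box nor TGACG.

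Genes of the reductases, membrane scaffolds and cytochrome b5 proteins that work with P450 enzymes were read in the same libraries. The reductase ATR2 had 172 and 190 CPM in nse4a-2_zeb, against 95.9 and 134 CPM in nse4a-2_ctrl, and rose by 0.68 ± 0.19 (adjusted p 0.0424). Its isoform ATR1 had 118 and 113 CPM in nse4a-2_zeb, against 101 and 114 CPM in nse4a-2_ctrl, and did not pass (adjusted p 0.502). MSBP1 and MSBP2, membrane proteins that hold P450 enzymes of lignin synthesis together, rose by 0.39 ± 0.11 (adjusted p 0.0374) and 0.50 ± 0.11 (adjusted p 0.0136). Of the 11 partner genes, 3 thus rose with zebularine in nse4a-2, where 8.94% of all genes rose. None was called in wild type, where 1.66% of all genes rose and ATR2 changed by 0.55 ± 0.19 (adjusted p 0.188). Of the 11, 2 had an unadjusted p below 0.05 there, against 15.9% of all genes, and DESeq2 called 1. In zebularine, MSBP1 and MSBP2 were higher in nse4a-2 than in wild type, and the cytochrome b5 genes AT2G46650 (−1.02 ± 0.16, adjusted p 0.00186) and AT1G60660 (−0.58 ± 0.14, adjusted p 0.0171) were lower. That is 2 of the 11 higher and 2 lower, where 12.9% of all genes were higher and 9.09% lower. AT2G46650 had 23.1 and 29.4 CPM in nse4a-2_zeb, against 59.4 and 47.4 CPM in WT_zeb.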

How the data were processed

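Per the labels' protocols, poly(A) RNA libraries were made with a TruSeq-type kit and read as 100-base single ends. The deposited table gives the raw read count per gene and biological replicate, per the file headers. TAIR10, TopHat2 and Cuffdiff are named in the submitters' processing notes, with no roles, and the counting tool, annotation and strand setting are not given in the sources used here. FPKM values per replicate were computed by the authors, as deposited, and 8 columns of their group means and SDs were not used.

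Counts of all genes were filtered with filterByExpr (19682 genes kept), TMM-normalised and modelled jointly over the 4 groups in edgeR 4.0.16 under R 4.3.3 (quasi-likelihood F test, 2-sided, Benjamini-Hochberg over all genes tested, threshold 0.05). "Rose", "fell", "higher" and "lower" calls refer to this test. The SE is the size of the log2 fold change divided by the square root of F. The procedure was tested on simulated data. CPM are counts scaled to a library's total. A fold against a group at 0 was bounded with a floor of 3 counts over its 2 libraries, which covers counting error only. The alternatives were DESeq2 1.42.0, RLE scaling, no filter, at least 1 CPM in 2 libraries, a replicate block, and leaving out each of the 8 libraries. Sequences came from the TAIR10.1 genome of RefSeq with Biopython 1.88, where all 230 members were found by locus tag.

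The members, role lists and tests were chosen with earlier results of these data known. Genes were named by a rule: per comparison the 8 greatest rises and falls among called members, up to 4 members of each role list with the greatest change and all called ones, the 10 highest mean FPKM, the gene run with the most called members, and called partners. Other named genes were chosen after their values were seen.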

Additional observations from a re-analysis of the deposited data

Results flagged for a closer look

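For 3 P450 genes the zebularine response differed between the genotypes by the test of the difference itself (nse4a-2 minus wild type, edgeR's quasi-likelihood test, adjusted over all genes). CYP76C2 differed by 3.79 on the log2 scale, with a change of 4.69 in nse4a-2 and 0.90 in wild type, and kept an adjusted p below 0.05 in 3 of the 8 fits that left out 1 library, with a highest adjusted p of 0.119. CYP71B22 differed by 1.77, with a change of 0.68 in nse4a-2 and −1.09 in wild type, and kept it in 1 of 8 fits (highest adjusted p 0.128). CYP71B26 differed by 0.99, with a change of 0.49 in nse4a-2 and −0.49 in wild type, and kept it in none of 8 fits (highest adjusted p 0.173).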

How the results depend on the processing

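All named calls kept their direction under the 13 alternatives. Of 50 named calls, RLE scaling, the fit without a filter and the replicate block lost none, DESeq2 lost 5, a minimum of 1 CPM in 2 libraries lost none and left 2 untested, and leaving out 1 library lost 8 to 26, with 26 without nse4a-2_zeb replicate 2. For zebularine in nse4a-2, leaving out each library gave 5 to 19 rises and 0 to 3 falls, against 17 and 1 with all libraries. For zebularine in wild type it gave 0 to 4 rises and 0 to 2 falls, against 3 and 1. Between genotypes it gave 14 to 29 higher and 1 to 5 lower members in zebularine, against 27 and 4, and 1 to 6 higher and 0 to 1 lower in control medium, against 5 and 0. For the difference it gave 0 to 4 members higher and 0 lower, against 3 and 0. In wild type with zebularine DESeq2 gave 7 rises and 2 falls, no filter 9 and 2, and the replicate block 10 and 2. In control medium DESeq2 gave 10 higher and 1 lower members, no filter 13 and 1, and the replicate block 15 higher. For the difference, DESeq2 and no filter gave 1 lower member each and the block 2. The cause of these changes in count was not tested, and the shares of all genes called under these settings are not given. Deviations of same-numbered replicates correlated at r of −0.086 to 0.234 between groups, and whether same-numbered libraries shared a batch was not tested. With 2 libraries a group, members with few reads could not be tested, and an adjusted p that misses the threshold does not show equality.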
